A study of Homo sapiens with 4 samples.

Results

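The cytosolic ribosome is the particle that makes protein in the cell body. Its small (40S) subunit reads the mRNA and carries the proteins named RPS, and its large (60S) subunit joins the amino acids and carries the proteins named RPL. Each protein is needed once per ribosome, except those of the stalk, and most are coded by 1 expressed gene that has left many silent copies, called processed pseudogenes, across the genome. Most of these mRNAs start with a C followed by a run of C and T bases, the 5′ terminal oligopyrimidine (TOP) tract, through which their translation is controlled together. A few genes have a second functional copy, or paralog, whose protein can take the place of the first.

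The cytosolic ribosomal protein genes were taken as every protein-coding gene whose symbol is RPLP0, RPLP1 or RPLP2, or begins with RPL or RPS followed by a digit, leaving out the RPS6K kinases and RPS27L. The rule found 83 of 29833 genes in the expression table, 52 named RPL and 31 named RPS. Of these, 76 are core ribosomal proteins, 46 of the large and 30 of the small subunit. Another 6 are paralogs, namely RPL3L, RPL7L1, RPL22L1, RPL26L1, RPL36AL and RPL39L. The last, RPS19BP1, codes for a protein that binds RPS19 and is not itself a ribosomal protein, so the name rule and the label disagree on it.

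The values came from RNA sequencing of Reh-6-MPR, a subline of the B-cell acute lymphoblastic leukemia line Reh that was made resistant to 6-mercaptopurine (6-MP), a thiopurine drug that is turned into false purine nucleotides. All 4 libraries came from this resistant line, labelled wild type, after 48 h with PBS vehicle (Blank), 4 mM histidine (His), 1 µg/mL 6-MP or both agents (His+6-MP). The comparisons ask how each agent and their combination changed the transcriptome. Each treatment had 1 library, so nothing here could be checked against replicates and no test was run.

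The libraries held between 12899122 reads (His+6-MP) and 15486376 reads (His). All 7 B-cell precursor markers with a row in the table were at 1 FPKM or more in every library, FPKM being fragments per kilobase of transcript, scaled to library size. Of 3 listed markers of monocytes and granulocytes, MPO, a myeloid enzyme, was at 27.7, 30.5, 26.4 and 41.0 FPKM under vehicle, histidine, 6-MP and the combined treatment. LYZ, lysozyme, was at 0.324, 0.0375, 0.113 and 1.39 FPKM in the same order, and CD14 was at most 0.1695 FPKM. Both MPO and LYZ were highest under the combined treatment, and their part in the results was not tested. The stromal COL1A1 lay between 0.869 and 2.04 FPKM, erythroid HBB was at or near 0, and no T-cell marker of the list had a row. FPKM is a share of each library, so a change in total RNA per cell and a change in the number of cells cannot be seen in it or told apart.

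Start sites are shown first for 10 of the members described in the results, among them genes with high or low levels, genes with large changes, a paralog pair and RPL39 for its long tract, because the run of capitals is the part these mRNAs are known to share. Each line gives 10 bases before and 20 bases from the transcription start, 5′ to 3′ on the transcribed strand, from RefSeq on GRCh38.p14. Capitals mark the TOP tract, counted where the start base is C and the next 4 bases are each C or T.
RPS12: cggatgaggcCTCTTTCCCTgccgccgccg
RPL41: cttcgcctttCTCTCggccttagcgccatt
RPLP0: ggcgcgaggcCCTTCTCTCgccaggcgtcc
RPL7A: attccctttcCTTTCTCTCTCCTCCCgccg
RPS25: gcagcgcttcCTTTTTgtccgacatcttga
RPL39: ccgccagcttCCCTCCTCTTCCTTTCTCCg
RPL22: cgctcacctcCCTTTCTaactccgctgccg
RPL22L1: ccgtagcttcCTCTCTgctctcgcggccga
RPL7L1: gtgcggcgccgtagctaggagcggacgcca
RPL3: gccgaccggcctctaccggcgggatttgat

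Among these windows, RPL22 lies at chr1:6199576-6199605 and its paralog RPL22L1 at chr3:170870176-170870205, both on the minus strand and both with a tract. RPL7A, at chr9:133348208-133348237 on the plus strand, has a tract of 16 bases, and RPL39, at chrX:119791611-119791640 on the minus strand, one of 19 bases within the window. RPL7L1, a paralog at chr6:42879606-42879635 on the plus strand, has none at its listed start. RPL3, at chr22:39319604-39319633 on the minus strand, has a run of C and T bases from its listed start that is 4 bases long, 1 short of the 5 the rule asks for. Of the 83 genes, 65 had a start window, and 46 of them (70.8%) had the tract at 1 or more of their listed starts, against 5.14% of all 27305 genes with a window and 7.85% of the 8558 with a mean of at least 1 FPKM. The share refers to these letters at these starts and does not show which mRNAs are translated through the tract. The other 18 members had no window.

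The level of the 83 genes spanned more than 3 orders of magnitude, although the proteins are needed in nearly equal number. By the mean over the 4 libraries RPS12, a 40S protein, was the most abundant. It was at 996, 968, 1010 and 1159.5 FPKM under vehicle, histidine, 6-MP and the combined treatment. RPS2 (992, 1069, 1078 and 928 FPKM) and RPL41, the smallest ribosomal protein (925, 930.5, 961.5 and 1102 FPKM), came next, and RPLP0 was also among the 5 most abundant. FPKM divides by the length of all exons of a gene model together, 639 bases for RPS12 and 3988 for RPLP0, whose coding bases number 396 and 1026, so the order of the genes rests on that length. The median of the 76 core genes was 208 FPKM for the mean over the 4 libraries, with quartiles of 107 and 374. The large subunit (median 198 FPKM, 46 genes) and the small subunit (median 239 FPKM, 30 genes) overlapped over most of their range. Of the 83, 59 had a mean of at least 100 FPKM, where 298 genes of the whole table did, and 33 were among the 100 most abundant genes. For comparison, the 77 protein-coding genes of the mitochondrial ribosome had a median of 15.6 FPKM.

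A handful of core genes stood far below the rest. Among them were RPS10 (1.85, 1.51, 0.934 and 0.505 FPKM), RPL17 (2.05, 1.53, 1.81 and 0.981 FPKM), RPL36A (2.48, 1.68, 1.43 and 1.04 FPKM) and RPS25 (1.61, 2.405, 1.765 and 5.04 FPKM). RPS15A, RPL26, RPS23, RPS29 and RPL30 had means between 3.53 and 22.9 FPKM. Of the 83 members, 2 did not reach the mean of 1 FPKM asked for in the comparisons, so 81 were compared. RPL3L, the muscle paralog of RPL3, was one of them, at 0.127, 0.187, 0.118 and 0.281 FPKM.

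The gene models of several of the low genes overlap others. In GENCODE 29, 7 of the 83 genes have coding bases that lie in exons of another protein-coding gene on the same strand. Among them are RPL17 (98.2% of coding bases), RPL36A (67.3%), RPL26 (60.7%), RPL22 (59.4%), RPS10 (56.9%) and RPS15A (36.9%). For 3 of them the partner is a read-through model that joins the gene to its neighbour (RPL17-C18orf32, RPL36A-HNRNPH2 and RPS10-NUDT3), not analysed here. The means of these 7 genes had a median of 1.66 FPKM and a highest value of 25.6, whereas the other 69 core genes had a median of 237 FPKM and a lowest mean of 2.70. How reads in shared bases were assigned is not given in the sources used here, so the levels of these 7 genes are uncertain. RPS25, a 40S protein with roles in internal initiation, has no shared coding bases, though 20.8% of its exon bases lie in an exon of another gene on either strand.

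Pseudogenes are the other source of uncertainty, since a processed copy can be nearly identical to its parent mRNA. The table listed 459 pseudogenes named after ribosomal protein genes, 434 of them after a member, and 18 had a mean of at least 100 FPKM. Their FPKM summed to 6287, 6093, 6084 and 7265 under vehicle, histidine, 6-MP and the combined treatment. The members summed to 20866, 20449, 20618 and 22231 FPKM in the same order. For 13 members the pseudogenes named after the gene summed to more FPKM than the gene. RPS28P7 stood at 616, 647, 611 and 738 FPKM while RPS28, a 40S protein, stood at 104, 96.9, 102 and 134. RPL39P3 was at 329, 304, 307 and 491 FPKM, above RPL39. RPL21, with 30, and RPL23A, with 29, had the most listed pseudogenes. The division of reads between a gene and its copies was not tested.

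Together the 83 genes took 8.39%, 8.30% and 8.37% of the summed FPKM under vehicle, histidine and 6-MP, and 9.16% under the combined treatment. Counted as reads, the shares were 6.15% (exact binomial 95% interval 6.14 to 6.17), 6.05% (6.03 to 6.06), 6.08% (6.07 to 6.09) and 6.54% (6.53 to 6.56). The intervals cover counting error only. The share under the combined treatment was the highest on both scales, and the other 3 lay within a narrow range. The small subunit genes went from 2.14% of reads under vehicle to 2.31% under the combined treatment, and the large subunit genes from 4.01% to 4.23%. The mitochondrial ribosomal protein genes went the other way, from 0.405% to 0.363% of reads.

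Under either agent alone the genes held their levels more closely than genes at large. Over vehicle, histidine and 6-MP, the highest value was within 1.2-fold of the lowest for 74 of the 81 compared members (91.4%), against 67.0% of all 12750 compared genes. The median ratio of the highest to the lowest of the 3 was 1.04 for members and 1.13 for all genes. Beside protein-coding genes alone, the SD of the members' log2 changes was 0.13 against 0.15 under histidine and 0.11 against 0.15 under 6-MP. The distance between the quartiles was 0.08 against 0.15 and 0.07 against 0.14. High expression goes with small counting error, and genes of like abundance also moved little. For the 59 members with a mean of at least 100 FPKM, the SD of the log2 fold change across genes was 0.06 for histidine and 0.07 for 6-MP, against 0.09 for both agents among 239 other genes of that abundance.

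Under histidine alone no member differed from vehicle by 1 or more on the log2(FPKM + 1) scale, which understates the change of low genes. This is 0 of 81, beside 1.33% of all genes and 0.19% of the 9997 compared protein-coding genes, the class to which all members belong. The median change of the members was -0.03 against vehicle, and that of all genes 0.01. 6-MP alone likewise had 0 of 81 past this size, beside 1.18% of all genes and 0.15% of protein-coding genes, with a median of -0.03 against 0.00 for all genes. At a size of 0.5 there was 1 member under histidine, RPL7A, beside 4.86% of all genes, and 2 under 6-MP, RPS10 and RPL36A, beside 4.72%. Of the 9997 protein-coding genes, 68 were higher and 29 lower by that size under histidine, and 75 and 36 under 6-MP. Both comparisons share the vehicle library. RPL7A, a 60S protein, had the lowest value under histidine (-0.74), and RPS25 the highest (0.38). Under 6-MP the lowest were RPS10 (-0.56), RPL36A (-0.52) and RPS18 (-0.39), and the highest was the paralog RPL39L (0.20).

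The combined treatment spread the members apart, while their median stayed near that of all genes. Against vehicle, 1 of 81 members passed a log2 change of 1, beside 6.53% of all genes, and that member was RPS25. Against 6-MP there were 2 of 81, RPS25 and RPL7A, beside 6.02% of all genes, and against histidine 0 of 81, beside 5.55%. Among protein-coding genes alone these shares were 4.22%, 3.81% and 3.55%. At a size of 0.5 there were 11 of 81 against vehicle (27.1% of all genes), 11 against 6-MP (26.2%) and 8 against histidine (25.4%). Those against vehicle were 4 higher and 7 lower, beside 19.7% and 7.37% of all genes. Of the 9997 protein-coding genes, 1646 were higher and 612 lower by that size. These 3 comparisons share the combined library. The median of the members was 0.11 against vehicle, 0.10 against 6-MP and 0.10 against histidine, and the median of all genes was 0.13, 0.13 and 0.11. The SD of the members' log2 changes against vehicle was 0.36, beside 0.13 for histidine alone and 0.11 for 6-MP alone. Among all genes it was 0.51, 0.26 and 0.25, and among protein-coding genes 0.45, 0.15 and 0.15.

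The direction of the members' median under the combined treatment depended on the scaling. When each library was divided by its median ratio to the geometric mean of all 4, the factor for the combined library was 0.24 above that for vehicle (log2), and the members' median against vehicle became -0.14. The distance between the median of the members and that of all genes was -0.02 on the FPKM scale and -0.07 after that scaling. Its sign turned with the filter on low values, to 0.04 with no filter and 0.05 for genes with a mean of at least 5 FPKM. Over FPKM, median-ratio and TPM scaling, 16 of the 81 members were higher than vehicle in all 3, 29 were lower in all 3 and 36 changed direction. On the FPKM scale alone 50 of the 81 were higher, beside 8110 of all 12750 genes. The count over the 3 scalings is not given here for all genes.

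The difference between the medians of 2 sets of abundant genes is hardly touched by such a factor, unlike the count of genes above vehicle. Among the 298 genes with a mean of at least 100 FPKM, the 59 members had a median change of 0.12 against vehicle and the 239 others one of -0.27, a difference of 0.39 on the FPKM scale as well as after median-ratio scaling. Higher than vehicle were 38 of the 59 members and 71 of the 239 others on the FPKM scale, but 12 and 29 after median-ratio scaling. Against 6-MP the medians were 0.11 and -0.29, and against histidine 0.15 and -0.27. Under histidine alone both medians were -0.03, and under 6-MP alone they were -0.03 and -0.01. With 1 library per treatment this separation was not tested.

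**Figure D1:**
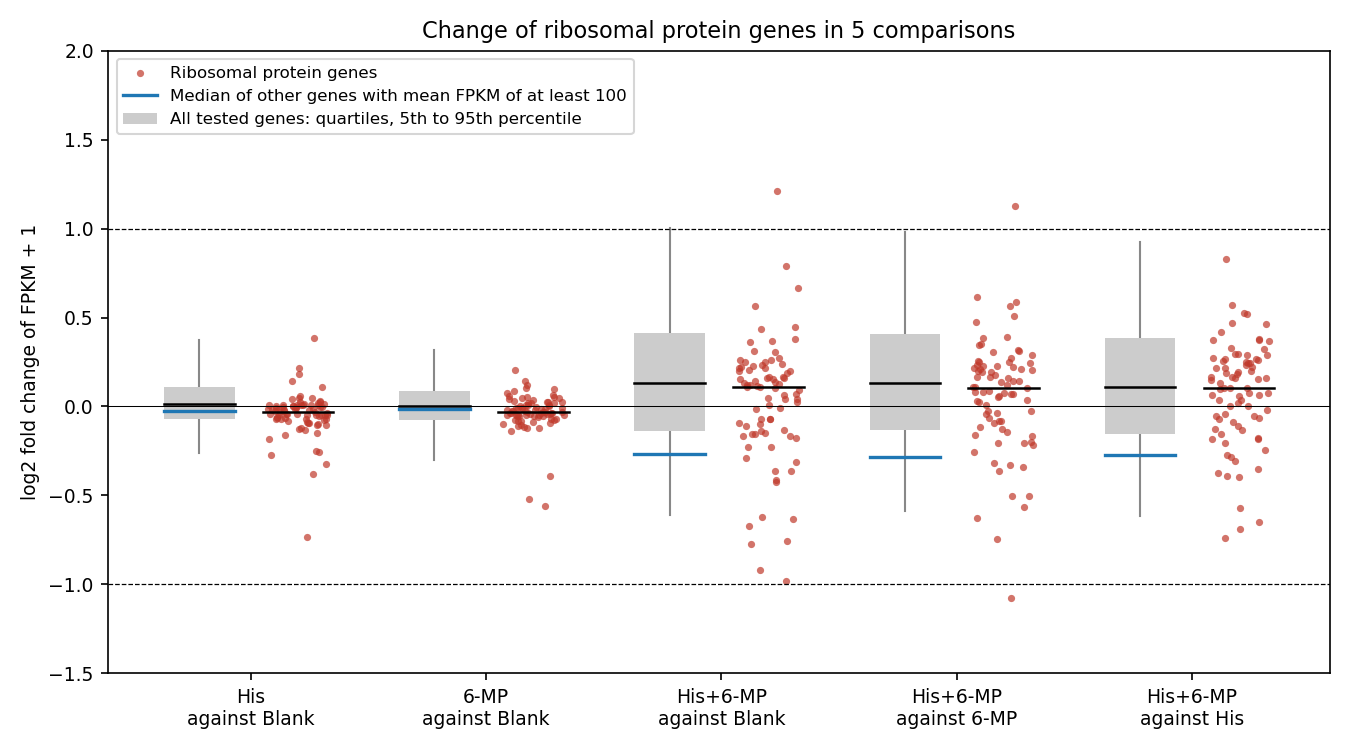
Log2 fold change of FPKM + 1 in 5 comparisons. Red points are the 81 compared ribosomal protein genes, grey boxes and lines the quartiles and the 5th to 95th percentile of all 12750 compared genes, black bars medians and blue bars the median of the 239 other genes with a mean of at least 100 FPKM. The points widen in the 3 comparisons with the combined treatment, where the blue bars lie below the members' medians.

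Of the genes that were higher under the combined treatment, RPS25 led, followed by the paralog RPL39L (0.79) and by RPL22 (0.67), which are described with the paralog pairs. The FPKM of RPS25 was 1.61 under vehicle, 2.405 under histidine, 1.765 under 6-MP and 5.04 under the combined treatment, from 34, 55, 40 and 96 reads. The read ratio of the combined treatment to vehicle was 1.65 in log2 units (exact 95% counting interval 1.07 to 2.26), and the gene lay far below most other core genes in every library. RPL3, which sits near the peptidyl transferase centre, was at 511, 528, 532 and 758 FPKM, with a log2 change of 0.57 against vehicle that rested on 34471 and 46024 reads. RPS27, a 40S zinc-finger protein, was at 477, 471, 468 and 650 FPKM (0.44). RPL34 (0.44), RPL39 (0.38), RPL31 (0.37) and RPS28 (0.36) followed. RPS25 and these 6 genes stayed above vehicle under each scaling tried, RPL31 and RPS28 by 0.12 at the least.

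RPL7A was the lowest of the members against vehicle on the log2(FPKM + 1) scale, and had the lowest value under histidine alone. With no value added to FPKM, RPS10, RPL36A and RPL17 were lower than RPL7A against vehicle, and with TPM RPS10 and RPL36A were. Its FPKM was 102 under vehicle, 60.7 under histidine, 109 under 6-MP and 51.1 under the combined treatment, from 3261, 2103, 3737 and 1475 reads. Both libraries with histidine were low and both without it were high. The read ratio was -0.75 for histidine against vehicle (interval -0.83 to -0.67) and -1.09 for the combined treatment against 6-MP (-1.18 to -1.004), and these comparisons share no library. It was the only member lower by 0.5 or more in both, where 47 of the 12750 genes (0.369%) were. Its most abundant pseudogene, RPL7AP6, was at 238, 220, 218 and 254 FPKM. Summed with all 15 of its pseudogenes, RPL7A stood at -0.28 for histidine against vehicle, at -0.09 for the combined treatment against 6-MP and at -0.15 for the combined treatment against vehicle, so the size of the change depends on how reads were divided between them.

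RPL6, a 60S protein, was at 294, 281, 280 and 189 FPKM, from 18704, 19347, 19072 and 10831 reads. It was lowest under the combined treatment, with a log2 change of -0.64 against vehicle, beside -0.06 under histidine and -0.07 under 6-MP. RPL23, another 60S protein, was at 141, 137, 130.5 and 104.5 FPKM (-0.43). RPS10 (-0.92), RPL36A (-0.77) and RPL17 (-0.62) were also lower on this scale. Their read ratios to vehicle, without the added 1, were -1.87 (interval -2.80 to -1.04), -1.26 (-1.75 to -0.80) and -1.07 (-1.72 to -0.44), beside -0.99 for RPL7A. They are among the genes with shared coding bases, and RPS10 rested on 61 reads under vehicle and 15 under the combined treatment. Summed with their pseudogenes, RPS10 turned to 0.27 and RPL17 came to -0.05, while RPL36A was at -0.92.

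Across the 81 members, the change with histidine alone and the change with histidine in the presence of 6-MP had a Pearson r of 0.57 and a Spearman rho of 0.37, and without RPL7A an r of 0.45. Over all genes r was 0.08. The points share gene-specific depth and pseudogene content, and the values are given as a description. The corresponding r for 6-MP without and with histidine was 0.39, and 0.07 over all genes.

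Departure from additivity was taken as the log2 change of the combined treatment minus the sum of the changes under either agent, all against vehicle. The count at 1 was 0 of 81 members, beside 6.76% of all genes and 3.91% of protein-coding genes, and at 0.5 it was 5, beside 27.3%. The lowest were the paralogs RPL22L1 (-0.68) and RPL7L1 (-0.61), then RPL6 (-0.50). The highest were RPS25 (0.74), RPS18 (0.68) and RPL23A (0.53). RPS18, a 40S head protein, was at 500.3, 476, 382 and 585 FPKM, with its low value under 6-MP alone.

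Paralogs and their parents often moved unequally. By the values of the genes alone, RPL22L1 was at or above RPL22, an RNA-binding 60S protein that is dispensable for translation at large and is mutated or deleted in some leukemias. RPL22L1 was at 59.3, 56.7, 59.0 and 34.7 FPKM, and RPL22 at 21.4, 23.7, 23.0 and 34.5. The ratio of RPL22L1 to RPL22 was 2.78 under vehicle (exact 95% counting interval 2.59 to 2.98), 2.40 under histidine (2.24 to 2.56), 2.57 under 6-MP (2.40 to 2.74) and 1.01 under the combined treatment (0.932 to 1.09). On these values the pair went from an excess of the paralog to equal levels, with RPL22L1 lower (-0.75) and RPL22 higher (0.67) than under vehicle on the log2 scale. A ratio of 2 genes in the same library does not depend on the scaling. RPL22 shares 59.4% of its coding bases with another gene model and has 11 listed pseudogenes. With them added RPL22 stood at 129, 138.5, 122 and 152 FPKM, above RPL22L1 in every library, so the excess of the paralog turned. The ratio then went from 0.459 under vehicle to 0.229 under the combined treatment. The summed change of RPL22 was 0.23 against vehicle, so its part of the ratio is less sure than that of RPL22L1, which has none.

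RPL7L1, whose protein acts in the assembly of the 60S subunit, was at 38.0, 37.4, 36.8 and 23.5 FPKM, while RPL7 was at 492, 487, 506 and 509. Their ratio was 0.0772, 0.0768 and 0.0726 in the first 3 libraries and 0.0461 under the combined treatment (0.0441 to 0.0481). RPL39L, a paralog known mainly from testis and cancer cells, was higher under the combined treatment, as was its parent. RPL39L went from 24.7 FPKM under vehicle to 28.9, 28.6 and 43.5, and RPL39 went from 139 to 139, 145 and 181. The ratio of the pair was 0.178 under vehicle (0.160 to 0.198) and 0.208 under histidine (0.188 to 0.229). It was 0.198 under 6-MP (0.179 to 0.218) and 0.2403 under the combined treatment (0.220 to 0.262). RPL26L1 was above RPL26 in every library, with a ratio between 3.92 and 4.64, and RPL36AL was above RPL36A, with one between 67.2 and 145. In both pairs the parent is one of the genes with shared coding bases. Against RPL26 summed with its pseudogenes the ratio of RPL26L1 was 1.09, 0.976, 1.31 and 0.662, with no constant order, and against RPL36A so summed that of RPL36AL lay between 25.9 and 51.1. For RPL39L the ratio to RPL39 with its pseudogenes was 0.0499, 0.0627, 0.0609 and 0.0631 under vehicle, histidine, 6-MP and the combined treatment. It was thus above vehicle by a like amount under each agent alone. For RPL7L1 the ratio to RPL7 so summed was 0.0386, 0.0399, 0.0373 and 0.0225 in the same order.

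Of the 5 paralogs compared, RPL39L alone was higher than under vehicle with the combined treatment. RPL22L1, RPL7L1, RPL26L1 (-0.36) and RPL36AL (-0.15) were lower, in each case under every scaling tried. RPS27L, left out by the rule and known as a target of p53, was at 4.36, 3.82, 3.81 and 12.97 FPKM, a log2 change of 1.38 against vehicle. Its ratio to RPS27 went from 0.00914 under vehicle to 0.0200.

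The stalk of the large subunit, which recruits the translation factors, is built from RPLP0 and pairs of RPLP1 and RPLP2, with RPL12 at its base. RPLP0 was at 715, 708, 717 and 838 FPKM, RPLP1 at 405, 396, 397 and 471, RPLP2 at 511, 477, 502 and 555, and RPL12 at 314, 299, 313 and 299. Under the combined treatment RPLP0 (0.23), RPLP1 (0.22) and RPLP2 (0.12) were above vehicle on the FPKM scale and RPL12 (-0.07) below, and all 4 were below after median-ratio scaling.

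RPL5, RPL11 and RPL23 can leave the ribosome to bind MDM2, the ubiquitin ligase that degrades p53. RPL11 was higher under the combined treatment (332, 316, 333 and 398 FPKM; 0.26), though by only 0.02 after median-ratio scaling, and RPL5 was lower (348, 338, 351 and 323 FPKM; -0.11), as was RPL23. RPL5 and RPL11 enter the 60S subunit together with 5S RNA, and their mRNAs moved apart.

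For Diamond-Blackfan anemia, an inherited failure of red cell production, 8 genes were compared from a list that holds only some of the mutated genes. On the FPKM scale 4 were higher than vehicle under the combined treatment, RPL35A (0.26), RPL11 (0.26), RPS19 (0.24) and RPS24 (0.06), and 4 lower, RPS10 (-0.92), RPS26 (-0.29), RPS7 (-0.18) and RPL5 (-0.11). Among all 12750 genes, 8110 were higher and 4638 lower on the FPKM scale. RPS10 was above vehicle with its pseudogenes summed in. RPS19 and RPS24 were below vehicle after median-ratio scaling. Of the 4 listed genes with known lesions in leukemia, RPL10, RPL11 and RPL22 were higher and RPL5 lower, with the same signs under each scaling. RPL10 was at 171, 177, 171 and 213 FPKM (0.31).

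Genes called with and without the TOP tract at their listed starts had different medians. The call rests on the exact start base. RPL19 and RPS28, called without it, have a run of C and T bases across or just after a listed start. Whether the gap comes from the tract was not tested. Over the compared members with a window, paralogs included, medians were taken of the log2 change under the combined treatment against vehicle. The median was 0.14 for 46 with the tract and -0.14 for 19 without. Among core genes alone the gap was smaller. The 45 core genes with the tract had a median of 0.14, and 33 were higher. The 16 core genes whose listed starts had none had a median of 0.00, and 8 were higher. Among other protein-coding genes the medians were 0.15 for 608 with the tract, of which 414 were higher, and 0.10 for 7528 without, of which 4639 were higher. The members with the tract ranged from -0.98 (RPL7A) to 1.21 (RPS25), so both extremes carried it, as did RPL22 and RPL22L1, which moved in opposite directions.

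Ribosome constituents outside the name rule and other genes of translation were compared in the same way. Under the combined treatment against vehicle the log2 change was 0.23 for RACK1 and 0.11 for FAU, and RPSA was at 243 FPKM in both libraries. The list of 17 further translation genes, many with TOP mRNAs, had a median of 0.11 and an SD of 0.35, beside 0.11 and 0.36 for the members, with TPT1 highest (0.83) and NPM1, a nucleolar chaperone of ribosome assembly, lowest (-0.60). The 74 compared genes of the mitochondrial ribosome had a median of -0.15, with 49 of the 74 lower, beside 4638 of all 12750 genes. None of the 74 passed 1, beside 6.53% of all genes and 4.22% of protein-coding genes, the class to which they belong. RPS27A, which codes for ubiquitin fused to a 40S protein, was at 208, 211.5, 203 and 186 FPKM.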

How the data were processed

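Libraries were made with a stranded mRNA kit from total RNA of Reh-6-MPR cells. The authors deposited 1 table of FPKM values per gene, and the submitters' processing notes name Trimmomatic, HISAT2, Cufflinks, HTSeq and the builds hg38 and GRCh38, with no versions or roles. How reads in more than 1 gene were counted is not given in the sources used here. FPKM values were whole multiples of 1 read for 29738 of 29833 genes and all 83 members (within 0.004 of a read), from which reads and library totals were recovered, and this step was tested on simulated data. Lengths of a few genes are known only up to a whole multiple. A few named items are not reported here.

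Changes were taken as log2(FPKM + 1) for genes with a mean of at least 1 FPKM (12750 genes), and a change was counted at 1 or more. With 1 library per treatment no test was run, and intervals are exact Clopper-Pearson 95% intervals on reads that cover counting error only. Gene models came from GENCODE 29, whose IDs matched all 83 members and 28905 of all genes, and start windows from RefSeq. For some members the exon length recovered from FPKM differed from that of GENCODE 29. It was 3228 against 2369 bases for RPL13A and 639 against 767 for RPS12. The shared coding bases are those of GENCODE 29, and the models behind the deposited values may differ. The alternatives were another pseudocount, other filters, median-ratio and TPM scaling, a background of protein-coding genes, a threshold of 0.5 and, added after seeing the data, a mean of at least 100 FPKM, sums with pseudogenes, leaving out genes with shared coding bases and median ratios over compared genes. Named genes were the 5 highest and lowest under the combined treatment against vehicle (3 elsewhere), the 5 most and least abundant, members failing the filter, and the listed paralogs, stalk, MDM2, Diamond-Blackfan and leukemia genes. RPL34, RPL31, RPS28, RPS23, RPS29, RPL30, RPL21 and the pseudogenes named were chosen after their values were seen. The members and lists were chosen with earlier results of these data known. Scripts ran under Python 3.11.15 with matplotlib 3.10.9, scipy 1.17.1, pandas 2.3.3 and numpy 2.4.6.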

Additional observations from a re-analysis of the deposited data

Results flagged for a closer look

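RPS18 was the 1 member whose change with 6-MP had opposite signs without and with histidine at a size of 0.25 or more in both. It was -0.39 against vehicle without histidine and 0.30 against histidine alone with it. The difference was not tested, since each value compares 1 library with 1 library. No member met the same condition for histidine without and with 6-MP. The share of all genes that met either condition is not given here, so these counts describe the members only.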

How the results depend on the processing

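No paired analysis was possible because there is a single library for every treatment, so leaving one out was not possible either. Direction of the members' median under the combined treatment was set by the scaling. With median ratios over all genes above 0 it was -0.14 against vehicle, -0.13 against 6-MP, -0.098 against histidine and -0.0353 for the departure from additivity, and -0.072 for histidine against vehicle. With median ratios over compared genes, added after seeing the data, the first 4 were -0.0483, -0.0417, -0.0273 and 0.0369. With TPM it was 0.14 against vehicle, at a mean of at least 100 FPKM (added later) 0.15 against histidine, and with pseudogenes summed in (added later) 0.14 against 6-MP. The cause was not tested. Members past a log2 change of 1 for the combined treatment against vehicle were 3 with a pseudocount of 0.1, with median ratios and with TPM, 2 with median ratios over compared genes, and 0 at a mean of at least 5 or 100 FPKM, where RPS25 is no longer included. The share of all genes past 1 was then 11.9% with a pseudocount of 0.1, 5.78% with median ratios, 17.3% with TPM, 5.80% with median ratios over compared genes, and 4.11% and 4.03% at 5 and 100 FPKM, beside 6.53% as reported. Against 6-MP there was 1 at a mean of at least 5 FPKM (3.65% of the genes compared) and with median ratios (5.03%). There was also 1 with pseudogenes summed in, and 0 at 100 FPKM (3.69%), beside 6.02% of all genes as reported. Against histidine there were 2 with a pseudocount of 0.1 (10% of all genes) and with TPM (15.7%), beside 5.55% of all genes as reported. At a threshold of 0.5 the counts were 1 for histidine, 2 for 6-MP, 11 against vehicle, 11 against 6-MP, 8 against histidine and 5 for additivity. The shares of all genes were 4.86%, 4.72%, 27.1%, 26.2%, 25.4% and 27.3% in the same order. Without paralogs the share of FPKM was 8.26%, 8.18%, 8.24% and 9.05% in vehicle, histidine, 6-MP and the combined treatment. Counted as reads, paralogs included, the share was 6.15%, 6.05%, 6.08% and 6.54%. The distance of the members' median from that of all genes, for the combined treatment against vehicle, was -0.02 as reported but 0.04 with no filter and 0.05 at a mean of at least 5 FPKM. All other medians and counts of the members kept their direction and lay near the values reported, including those with no filter and without the 7 genes with shared coding bases. Taking protein-coding genes only cannot alter a member's value, and lowered the share of all genes past 1 from 6.53% to 4.22% for the combined treatment against vehicle, from 1.33% to 0.19% for histidine and from 1.18% to 0.15% for 6-MP.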
